A study of Mus musculus with 4 samples.

Results

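The 7 inflammatory CC chemokine genes described here are Ccl2, Ccl3, Ccl4, Ccl5, Ccl7, Ccl8 and Ccl12. They were taken by name from the 41862 gene columns of 4 single-cell RNA count tables. Each table is 1 library made by inDrops, a droplet method in which RNA is counted by unique molecular identifiers (UMIs). C57BL6 mice carrying Aldh1l1CreERT2-TdTomato, in which the promoter of the astrocyte gene Aldh1l1 drives an inducible Cre, gave the cells, which were sorted as TdTomato+ and LAMP1+ (a lysosomal membrane protein at the cell surface). A further sort on TRAIL, a death ligand, gave the libraries TRAIL- naive, TRAIL+ naive, TRAIL- EAE and TRAIL+ EAE, named in that order below where 4 values follow each other. EAE is experimental autoimmune encephalomyelitis, a model of multiple sclerosis, induced with 150 µg of MOG35-55 peptide in complete Freund's adjuvant per mouse and sampled at peak disease, and naive mice had no induction. The series lists 3 naive and 3 EAE mice, and does not say if a library pools them. Each group is 1 library, so there was no replicate check and no test, and every interval in parentheses is an exact 95% interval that covers counting error only.

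CC chemokines are small secreted proteins that attract leukocytes through G protein-coupled receptors. Ccl2, Ccl7 and Ccl12 are ligands of Ccr2, the receptor by which inflammatory monocytes leave the bone marrow and reach inflamed brain and spinal cord. Ccl3, Ccl4 and Ccl5 attract T cells and myeloid cells, and Ccl3 and Ccl5 are ligands of Ccr1. Mouse Ccl8 signals through Ccr8. Microglia are the resident macrophages of the brain tissue, whereas border macrophages live in the meninges and around vessels.

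Of the 12987 barcodes listed, 7899 had at least 500 UMIs and at most 20% mitochondrial UMIs (2259, 2229, 1597 and 1814), at a median depth of 949, 1505, 1191 and 1907.5 UMIs. The labels call the cells astrocytes, but by clusters made without any chemokine gene only 35, 126, 3 and 7 barcodes carried an astrocyte profile. Microglia-like barcodes, with P2ry12, Tmem119 and Sall1, numbered 319, 1878, 300 and 1614. Border macrophage-like barcodes, led by Mrc1, Pf4, Cbr2 and F13a1, numbered 3, 83, 2 and 31. The monocyte-like cluster scored 0.996 on the monocyte marker list and 0.919 on the next best list. Led by Chil3 and Plac8, with Arg1, Lgals3 and the MHC class II genes H2-Aa and Cd74 also leading, monocyte-like barcodes numbered 19, 23, 233 and 137. Those of TRAIL+ naive held neutrophil markers at 48485 CPM (UMIs per 1000000 UMIs of the class), against 328 CPM in TRAIL+ EAE, so their content goes against the name and they were not compared between conditions. Most of the remainder were endothelial-like and pericyte-like barcodes of the TRAIL- libraries. Any pair of libraries shared 23 to 40 kept barcode sequences, whose part in the results was not tested.

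The 7 genes lie in 2 blocks on chromosome 11 (GRCm38, GENCODE annotation) and all are annotated as protein-coding. The first block holds Ccl2 (chr11:82035571-82037453, + strand), Ccl7 (chr11:82045712-82047525, +), Ccl12 (chr11:82101845-82103400, +) and Ccl8 (chr11:82115185-82116799, +). The second begins 1408978 bases further on and holds Ccl5 (chr11:83525778-83530518, - strand), Ccl3 (chr11:83647844-83649355, -) and Ccl4 (chr11:83662584-83664683, +). Of the 7, only Ccl2 overlaps another annotated gene, Gm17268. No stretch of 30 bases in the transcripts of Ccl2, Ccl3, Ccl4, Ccl7, Ccl8 and Ccl12 is shared with another gene, and in Ccl5 this holds for all but 7 of 929 stretches.

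RefSeq's promoter table (GRCm38.p6) held 3 of the 7 genes. The 250 bases before each start site follow, 5′ to 3′ on the gene's strand, at chr11:82101595-82101844 (+) for Ccl12, chr11:82114935-82115184 (+) for Ccl8 and chr11:83649379-83649628 (-) for Ccl3. These are the promoters held by the table. Ccl12 and Ccl8 are neighbours, 11784 bases apart, and Ccl3 lies in the other block. Most Ccl12 UMIs lay in microglia-like cells, and most Ccl8 UMIs in border macrophage-like cells. Capitals mark the TATA box letters TATAAA.
Ccl12: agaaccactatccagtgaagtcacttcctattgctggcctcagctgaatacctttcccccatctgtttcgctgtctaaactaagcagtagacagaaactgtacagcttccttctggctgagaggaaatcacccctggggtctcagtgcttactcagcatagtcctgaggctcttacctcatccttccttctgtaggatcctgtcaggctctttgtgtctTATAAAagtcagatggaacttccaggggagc
Ccl8: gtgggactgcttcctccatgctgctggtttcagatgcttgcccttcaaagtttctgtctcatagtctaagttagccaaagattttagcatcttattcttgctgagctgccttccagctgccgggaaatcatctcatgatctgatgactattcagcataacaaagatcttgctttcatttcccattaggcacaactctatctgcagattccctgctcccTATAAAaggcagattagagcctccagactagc
Ccl3: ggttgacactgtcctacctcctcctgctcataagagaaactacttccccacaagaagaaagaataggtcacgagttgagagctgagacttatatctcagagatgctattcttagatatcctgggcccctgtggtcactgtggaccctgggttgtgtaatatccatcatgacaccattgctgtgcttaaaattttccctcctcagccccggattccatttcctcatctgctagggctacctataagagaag
TATAAA runs from position -31 to -26 before the start site of Ccl12 and from -32 to -27 in Ccl8. Searched on both strands, it occurs in 12.4% of all 32851 promoters of this length. TTCNNNGAA (GAS, in 7.02% of promoters), TGANTCA (AP-1, 6.75%) and the NF-kB motif (5.93%) were not found in these 3 windows, and Ccl3 held none of the 4 motifs. These are matches of letters, from which nothing is read about a factor. The RefSeq start of Ccl3 lies upstream of its GENCODE start (83649355), so the bases between them were not searched.

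Ccl3 and Ccl4, attractants of macrophages and T cells, came mainly from microglia-like cells in every library and were nearly level between naive and EAE. Microglia-like barcodes held 93.1%, 96.4%, 87.2% and 96.7% of the Ccl3 UMIs, and 91.7%, 96.3%, 87.9% and 96.4% of the Ccl4 UMIs. They held 18.3%, 85.1%, 23.5% and 86.4% of all UMIs, so in the TRAIL- libraries a minority of the RNA carried most of both genes. The plot of UMI sources shows this as microglia-like segments that fill most of the Ccl3 and Ccl4 bars.

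**Figure D1:**
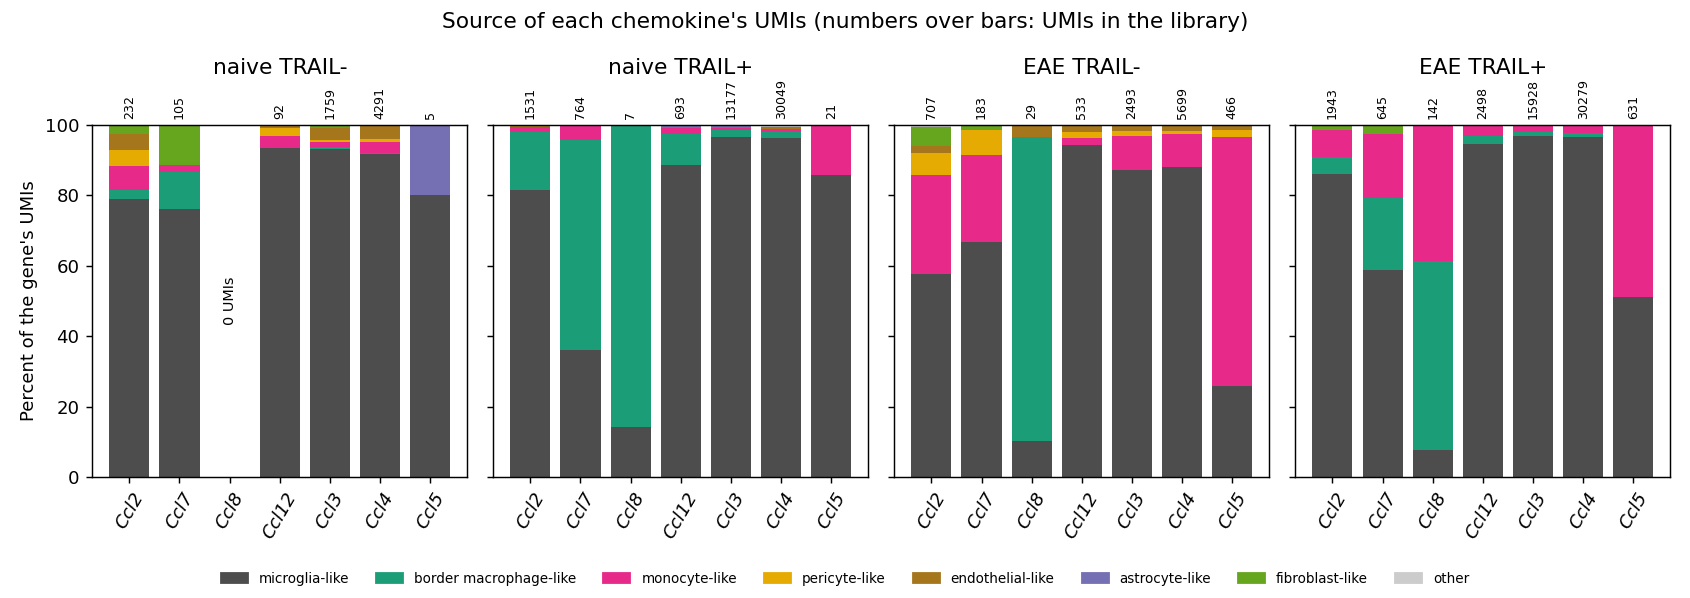
Stacked bars give, for each library and gene, the percent of the gene's UMIs found in each cell class (colours), with the number of UMIs over each bar. Ccl3, Ccl4 and Ccl12 are mostly microglia-like in all 4 libraries, most of the few Ccl8 UMIs are border macrophage-like, and Ccl5 is 70.8% monocyte-like in TRAIL- EAE.

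The Ccl3 level of microglia-like cells was 3252 CPM in TRAIL- naive (3096 to 3413), 4101 in TRAIL+ naive (4030.4 to 4173), 3622 in TRAIL- EAE (3471 to 3778) and 4739 in TRAIL+ EAE (4664 to 4814). The Ccl4 level was 7812 CPM in TRAIL- naive (7569.9 to 8060.1), 9344 in TRAIL+ naive (9236 to 9452), 8346 in TRAIL- EAE (8116 to 8579.9) and 8981 in TRAIL+ EAE (8878 to 9084). Both genes were high in all 4 libraries. The EAE over naive ratio of Ccl3 was 1.16 in the TRAIL+ pair (1.13 to 1.18) and 1.11 in the TRAIL- pair (1.04 to 1.19). For Ccl4 it was 0.961 (0.946 to 0.977) and 1.07 (1.02 to 1.11), on either side of 1. Microglia-like barcodes form 3 clusters, and within clusters 4, 5 and 13 the TRAIL+ ratio of Ccl4 was 0.850 (0.820 to 0.880), 0.743 (0.722 to 0.765) and 0.812 (0.769 to 0.858), lower in EAE in each. In the TRAIL- pair it was 0.817 in cluster 4 (0.747 to 0.892) but 1.01 in cluster 5 (0.908 to 1.12).

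Most microglia-like cells carried both genes, in naive mice too. A Ccl3 UMI was seen in 73.7%, 82.5%, 68.7% and 85.3% of them and a Ccl4 UMI in 77.7%, 86.3%, 73.7% and 87.4%. With every cell thinned to 500 UMIs, so that depth is equal, the shares were 57.1%, 68.0%, 57.7% and 70.1% for Ccl3 and 68.7%, 78.5%, 66.7% and 76.6% for Ccl4. Endothelial-like cells of TRAIL- naive, which should lack both, had thinned shares of 1.64% for Ccl3 and 2.16% for Ccl4, at a median of 898 UMIs against 1513 in microglia-like cells. Immediate early genes, which tissue digestion can also induce, summed to 56920, 57181, 31048 and 44306 CPM in microglia-like cells. They were highest in the naive libraries, and their part in the Ccl3 and Ccl4 levels was not tested.

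**Figure D2:**
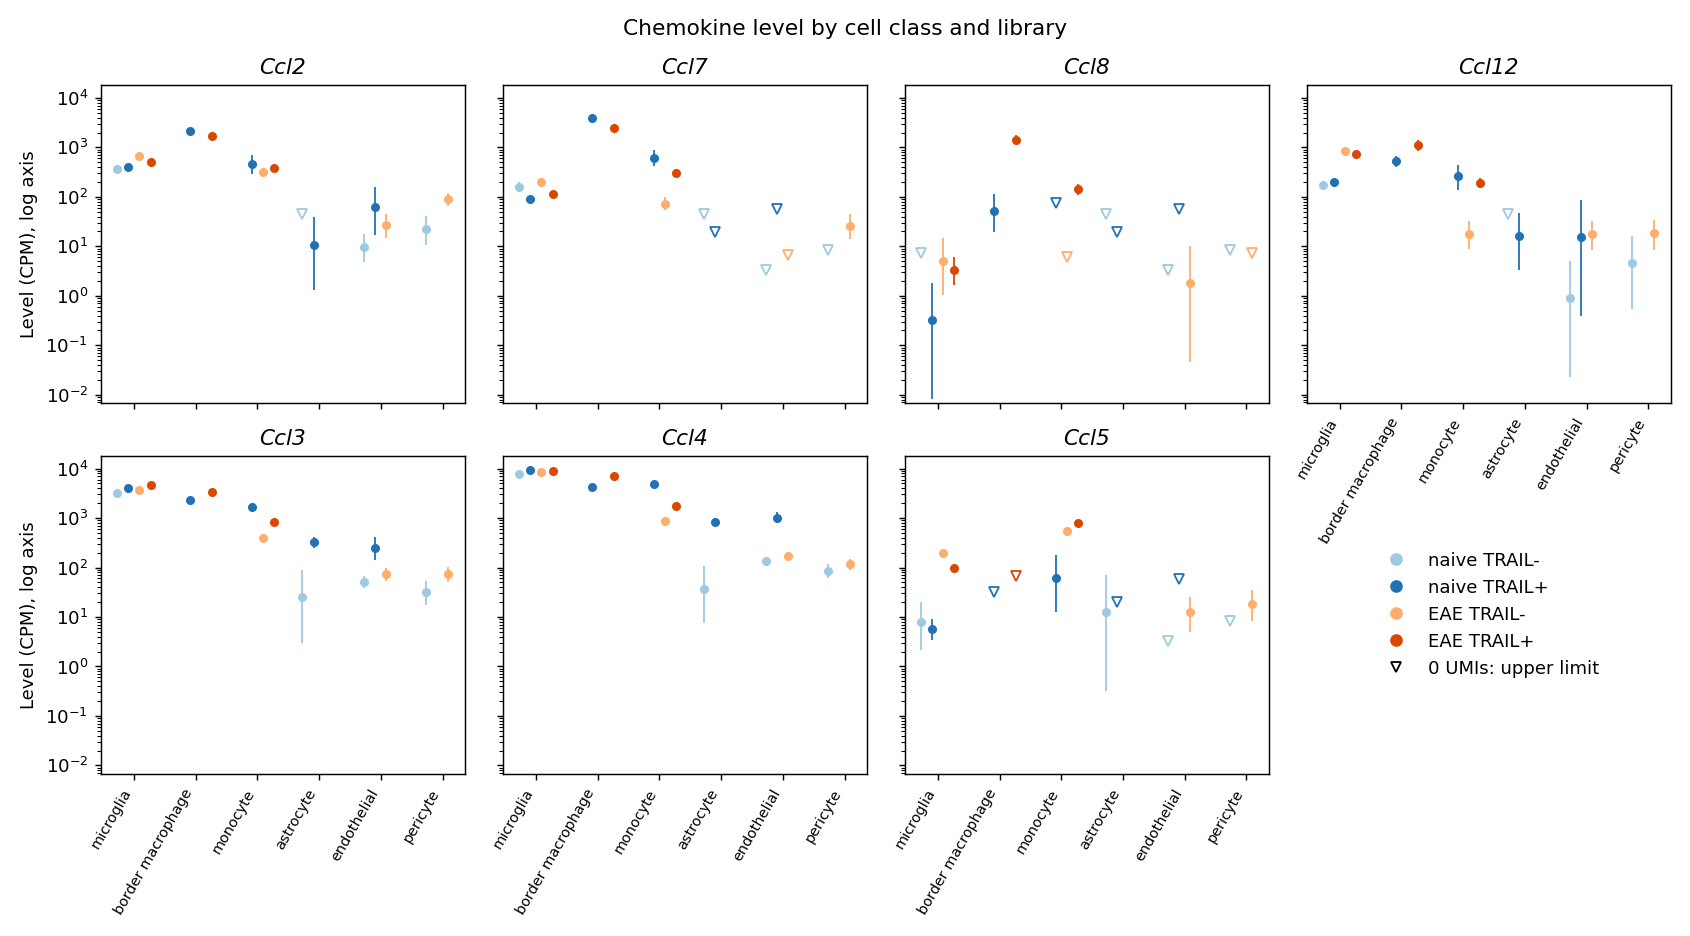
Each panel gives 1 gene's level (CPM, log axis) in 6 cell classes, with 1 point per library and its exact 95% Poisson interval; open triangles mark the upper limit where no UMI was seen. Classes with under 20 barcodes or 20000 UMIs in a library are left out, and Ccl7 stands highest in border macrophage-like cells (3979 and 2429.9 CPM).

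Ccl12, a monocyte attractant of rodents, was several times higher in EAE than in naive microglia-like cells, which held 93.5%, 88.5%, 94.2% and 94.5% of its UMIs. Their Ccl12 level was 171 CPM in TRAIL- naive (137 to 211), 198 in TRAIL+ naive (183 to 214), 836 in TRAIL- EAE (765 to 913) and 726 in TRAIL+ EAE (697 to 756). Both EAE libraries were above both naive ones, and the counting intervals of the conditions did not overlap. The EAE over naive ratio was 3.67 in the TRAIL+ pair (3.35 to 4.01) and 4.90 in the TRAIL- pair (3.89 to 6.23). By level, Ccl12 was higher in border macrophage-like than in microglia-like cells. It was at 533.5 CPM in the former in TRAIL+ naive, 2.69-fold (2.04 to 3.51) the microglia-like level. In TRAIL+ EAE it was at 1123 CPM, 1.55-fold (1.18 to 1.99), with 33 of 61 UMIs in 1 cell.

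More cells carried Ccl12 in EAE. A Ccl12 UMI was seen in 16.6%, 19.5%, 45% and 43.7% of microglia-like cells, and in 7.84%, 8.52%, 22.7% and 21% at 500 UMIs per cell. Unthinned endothelial-like cells of TRAIL- naive and TRAIL- EAE had shares of 0.0864% and 1.01%, at median depths of 898 and 1043 UMIs. The UMIs were spread over many cells, with 58 of 2360 in the richest cell of TRAIL+ EAE. Cluster 13, led by the MHC class II genes Cd74 and H2-Aa, held 808 of the 1614 microglia-like cells of TRAIL+ EAE but 60 of the 1878 of TRAIL+ naive. Within clusters 4, 5 and 13 the TRAIL+ ratio of Ccl12 was 3.04 (2.57 to 3.60), 2.54 (2.20 to 2.93) and 3.16 (2.21 to 4.66). In the TRAIL- pair it was 4.51 in cluster 4 (3.13 to 6.52) and 6.16 in cluster 5 (3.96 to 9.79). The higher Ccl12 level was thus present within each cluster that could be compared.

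Counted together, Ccl5 and Ccl12 of the 6 members that averaged 50 CPM or more in microglia-like cells were 2-fold or more higher in EAE in the TRAIL+ pair, and none was 2-fold lower. Among all 3222 genes of that pair, 2.45% were higher and 0.466% lower by that measure. The members' median log2 ratio was 0.37, beside -0.05 over all genes. In the TRAIL- pair the same 2 of 6 were higher, beside 7.93% higher and 8.42% lower of 3267 genes, with medians of 0.63 and -0.07. In TRAIL- EAE, 77 of the 120 Ccl5 UMIs lay in 29 barcodes with under 1% microglia markers. With such barcodes left out Ccl5 averaged under 50 CPM in this pair and was not called. Ccl8 was under 50 CPM in these cells, with 0, 1, 3 and 11 UMIs.

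**Figure D3:**
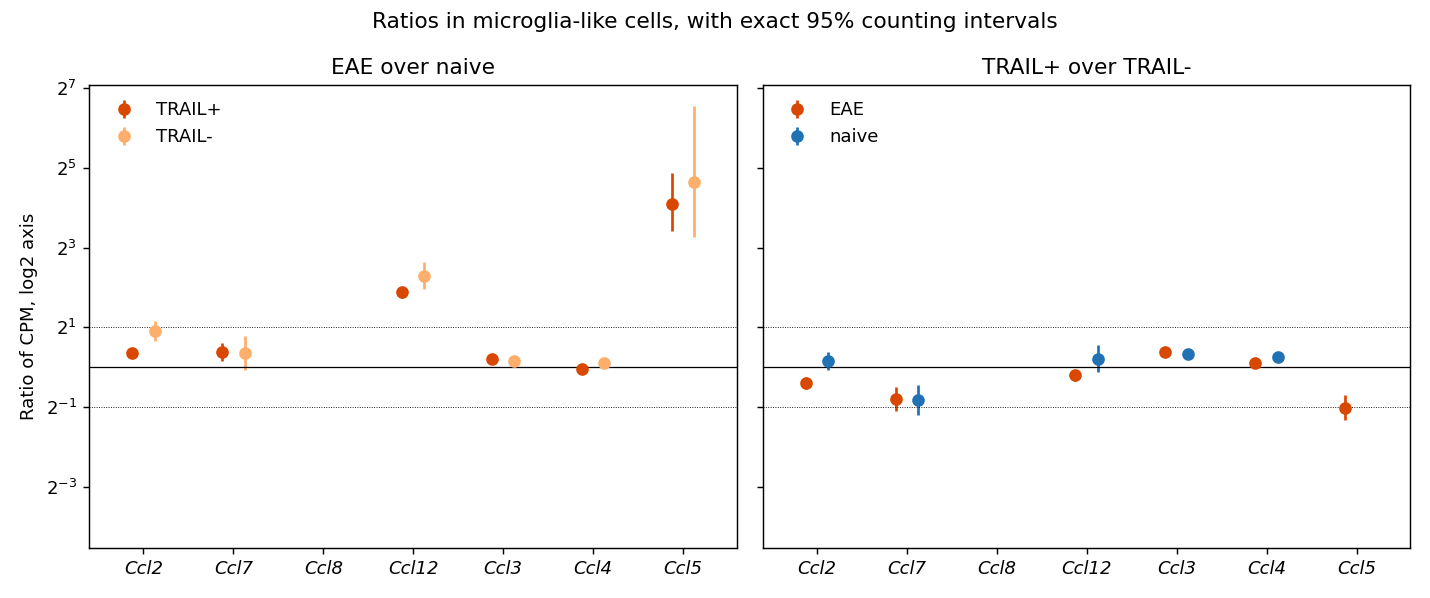
Points give the ratio of CPM in microglia-like cells with its exact 95% counting interval on a log2 axis, EAE over naive on the left and TRAIL+ over TRAIL- on the right, for members that averaged 50 CPM or more; dotted lines mark 2-fold. Ccl12 (3.67 and 4.90) and Ccl5 (17.0 and 25.2) lie above the upper line, while Ccl3 and Ccl4 lie near 1. In TRAIL- EAE, 77 of the 120 Ccl5 UMIs lay in barcodes with under 1% microglia markers.

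Ccl2, the main ligand of Ccr2, was less different between conditions in microglia-like cells than Ccl12. These cells held 78.9%, 81.5%, 57.6% and 86.0% of its UMIs. Its level there was 363 CPM in TRAIL- naive (313 to 419.9), 403 in TRAIL+ naive (381 to 426), 678 in TRAIL- EAE (614 to 747) and 514 in TRAIL+ EAE (489.8 to 539). The EAE over naive ratio was 1.28 in TRAIL+ (1.19 to 1.37) and 1.87 in TRAIL- (1.56 to 2.23). Within clusters 4, 5 and 13 the TRAIL+ ratio was 0.795 (0.656 to 0.958), 0.989 (0.875 to 1.12) and 1.13 (0.873 to 1.49), so the pooled TRAIL+ ratio was above 1 while none of these was, beyond counting error. In the TRAIL- pair the ratio was 1.18 (0.792 to 1.72) in cluster 4 and 1.97 (1.34 to 2.88) in cluster 5, the latter above 1 beyond counting error. Ccl2 in TRAIL+ EAE was higher in cluster 13, whose share of cells was the larger in EAE, at 635 CPM against 280.4 in cluster 4 and 428 in cluster 5. At 500 UMIs per cell a Ccl2 UMI was seen in 10.7%, 12.8%, 18.3% and 14.9% of microglia-like cells. In endothelial-like cells it was seen in 0.345% in TRAIL- naive and in 0 of 497 in TRAIL- EAE. At a limit of 3 counts the latter allows a share of cells with a UMI of up to 0.604% at this thinned depth. At full depth 7 of these 497 cells held 15 Ccl2 UMIs.

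Ccl7, another monocyte attractant, was at 159, 89.2, 203 and 116 CPM in microglia-like cells. The TRAIL+ ratio of EAE over naive was 1.30 (1.11 to 1.53) over all microglia-like cells, but 0.762 (0.496 to 1.14), 0.828 (0.618 to 1.10) and 0.814 (0.522 to 1.34) within clusters 4, 5 and 13. With cells classed one by one by their marker UMIs it was 0.768 (0.683 to 0.862). That classing made 1967 barcodes of TRAIL+ naive and 1686 of TRAIL+ EAE microglia-like, against 1878 and 1614 by clusters. Only 9 and 1 were then border macrophage-like, against 83 and 31. The direction thus turned with a change in which cells were counted, and the part of the regrouped barcodes was not tested. In the TRAIL- pair the ratio was 1.28 (0.958 to 1.72) over all, 0.227 (0.0598 to 0.613) in cluster 4 and 1.01 (0.283 to 3.03) in cluster 5. Microglia-like cells held 76.2%, 36.1%, 66.7% and 58.6% of the Ccl7 UMIs. At 500 UMIs per cell 3.45%, 2.82%, 2.33% and 3.35% of them had a Ccl7 UMI.

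Per unit of RNA, Ccl2 and Ccl7 were highest in border macrophage-like cells. In TRAIL+ naive the 83 border macrophage-like barcodes held Ccl2 at 2195 CPM (1932 to 2484), 5.45-fold the microglia-like level (4.74 to 6.25). In TRAIL+ EAE the 31 such barcodes held 1712 CPM of Ccl2 (1382 to 2097), 3.33-fold the microglia-like level (2.67 to 4.10). The gap was wider for Ccl7, at 3979 CPM in TRAIL+ naive (3622 to 4362) and 2429.9 CPM in TRAIL+ EAE (2033 to 2882). These Ccl7 levels were 44.6-fold (38.4 to 52.0) and 20.9-fold (17.0 to 25.5) those of microglia-like cells. With 3.14% of all UMIs, border macrophage-like cells held 59.6% of the Ccl7 UMIs of TRAIL+ naive, and with 1.44% they held 20.5% in TRAIL+ EAE.

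A Ccl7 UMI was seen in a minority of border macrophage-like cells, which at this depth does not limit the share that holds the RNA. It was seen in 27 of 83 cells in TRAIL+ naive (32.5%, 22.6 to 43.7) and in 10 of 31 in TRAIL+ EAE (32.3%, 16.7 to 51.4), at median depths of 1188 and 1582 UMIs. Of 1158 endothelial-like cells in TRAIL- naive 0 had one, which at a limit of 3 counts allows a share of cells with a UMI of up to 0.259% at a median of 898 UMIs. The EAE over naive ratio of Ccl7 in border macrophage-like cells was 0.611 (0.499 to 0.743), and 0.465 (0.360 to 0.593) without the richest cell of each library, which held 52 of 132 UMIs in TRAIL+ EAE. With cells classed one by one, which left 9 and 1 barcodes, it turned to 2.45 (1.49 to 3.90). Against microglia-like cells of TRAIL+ naive, Ccl2, Ccl7 and Ccl12 of 5 members were 2-fold or more higher and Ccl4 was lower, beside 13.6% higher and 8.67% lower of 3333 genes. In TRAIL+ EAE Ccl2, Ccl7 and Ccl8 of 6 were higher, beside 22.1% higher and 10.9% lower of 3394 genes.

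Ccl8 was rare in naive libraries and came from macrophage and monocyte-like cells. In all it had 0, 7, 29 and 142 UMIs. Border macrophage-like cells held 6 of the 7 in TRAIL+ naive, in 4 of 83 cells, and 76 of the 142 in TRAIL+ EAE, in 9 of 31 cells. Monocyte-like cells held another 55 in TRAIL+ EAE. In TRAIL- EAE 25 of the 29 UMIs lay in 1 of its 2 border macrophage-like cells.

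The Ccl8 level of border macrophage-like cells was 52.5 CPM in TRAIL+ naive (19.3 to 114) and 1399 CPM in TRAIL+ EAE (1102 to 1751). Their ratio was 26.7 (11.7 to 74.9), and 40.7 (13.2 to 203) without the richest cell of each library. It rests on 83 and 31 cells from 1 library each. Ccl12 in the same cells was 2.10-fold higher in EAE (1.45 to 3.05), and 1.29-fold (0.779 to 2.11) without the richest cells, of which that of TRAIL+ EAE held 33 of 61 UMIs. Ccl8 and Ccl12 were the 2 of 6 members 2-fold or more higher, beside 20.4% higher and 14.7% lower of 3361 genes.

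Border macrophage-like barcodes also carried RNA typical of microglia. P2ry12 was at 1251 CPM in them in TRAIL+ naive and 1381 CPM in TRAIL+ EAE, against 2252 and 1509 CPM in microglia-like cells. A border macrophage marker was seen in 80 of the 83 and 30 of the 31 barcodes, and P2ry12, Tmem119 or Sall1 in 41 and 13. In the 60 and 19 barcodes with more UMIs of the former than of the latter, Ccl7 was at 5528 and 3959 CPM, Ccl8 at 73.5 and 2279 CPM, and Ccl4 at 2525 and 4678 CPM. Over the whole class Ccl4 was at 4312 and 7161 CPM, so with barcodes richer in these microglial markers left out Ccl7 and Ccl8 were higher and Ccl4 lower. When cells were classed one by one by their marker UMIs, only 9 barcodes of TRAIL+ naive and 1 of TRAIL+ EAE were border macrophage-like. Their Ccl7 level was 6898 and 16915 CPM, and the 1 barcode of TRAIL+ EAE held no Ccl8 UMI.

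Ccl5, an attractant of T cells and monocytes, was rare in naive libraries and came from monocyte-like and microglia-like cells in EAE. It had 5, 21, 466 and 631 UMIs in all. Monocyte-like barcodes held 70.8% of them in TRAIL- EAE and 48.8% in TRAIL+ EAE, with 24.1% and 10.3% of all UMIs. Microglia-like barcodes held 25.8% and 51.0%. Per unit of RNA the monocyte-like level was the higher, at 536 CPM in TRAIL- EAE (480.1 to 598) and 796 CPM in TRAIL+ EAE (709.6 to 890.1). That was 2.68-fold (2.17 to 3.33) and 8.03-fold (6.85 to 9.42) the microglia-like level.

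A Ccl5 UMI was seen in part of the monocyte-like cells. It was found in 48 of 233 and 54 of 137 cells at median depths of 2689 and 2739 UMIs, against 1 of 497 endothelial-like cells of TRAIL- EAE at 1043 UMIs. At 500 UMIs per cell the monocyte-like shares were 12.9% and 16.1%. Border macrophage-like cells held 0 Ccl5 UMIs in both TRAIL+ libraries, whose intervals reach up to 32.3 and 67.9 CPM. Of the other members, Ccl2, Ccl3, Ccl4, Ccl7 and Ccl12 were 2-fold or more lower in monocyte-like than in microglia-like cells of TRAIL- EAE, and Ccl5 was the 1 of 6 members higher, beside 16.7% higher and 15.9% lower of 3300 genes. In TRAIL+ EAE Ccl5, Ccl7 and Ccl8 of 7 were higher and Ccl3, Ccl4 and Ccl12 lower, beside 15.3% higher and 15.1% lower of 3310 genes.

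In microglia-like cells Ccl5 was at 7.94 CPM in TRAIL- naive (2.16 to 20.3), 5.81 in TRAIL+ naive (3.45 to 9.19), 199.9 in TRAIL- EAE (166 to 239) and 99.1 in TRAIL+ EAE (88.5 to 111). The EAE over naive ratio was 17.0 in TRAIL+ (10.6 to 29.1) and 25.2 in TRAIL- (9.58 to 93.9). Few cells carried it in EAE, 26 of 300 in TRAIL- and 80 of 1614 in TRAIL+, with 37 of 120 and 43 of 322 UMIs in 1 cell. Without the richest cell of each library the ratios were 20.5 (11.8 to 38.9) and 69.7 (12.2 to 2786), the latter against 1 naive UMI. Cluster 13 held most of the TRAIL+ EAE UMIs, 268 of 322, at 155 CPM, and the ratio within it was 16.8 (3.00 to 668). At 500 UMIs per cell a Ccl5 UMI was seen in 4.67% and 1.98% of EAE microglia-like cells.

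In TRAIL- EAE the Ccl5 of microglia-like cells lay mostly in barcodes with few microglial markers. In 29 of the 300 barcodes those markers made up under 1% of UMIs. These held 77 of the 120 Ccl5 UMIs and all 112 UMIs of Ccr7, a receptor of mature dendritic cells. The 9 barcodes with a Ccr7 UMI, a split made after the values were seen, held 71 Ccl5 UMIs. The 288 barcodes with neither Ccr7 nor 2 UMIs of T or NK cell markers had 85.2 CPM. In TRAIL+ EAE 11 of 322 Ccl5 UMIs lay in microglia-like barcodes with Ccr7, and the 1599 with neither had 96.8 CPM. Among monocyte-like cells of TRAIL- EAE the 10 barcodes with Ccr7 held 79 of 330 Ccl5 UMIs, and the 216 with neither had 423 CPM.

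Monocyte-like cells of TRAIL+ EAE held several members at higher levels than those of TRAIL- EAE. Ccl3 was at 848 CPM in the former and 390.1 in the latter, a ratio of 2.17 (1.83 to 2.58). Ccl7 was at 302 and 73.1 CPM (ratio 4.13, 2.91 to 5.97), and Ccl12 at 194 and 17.9 CPM (ratio 10.8, 5.73 to 22.6). Ccl8 had 55 UMIs, 28 of them in 1 cell, against 0, which is at least 29.1-fold higher at a floor of 3 counts over the class. These 4 of 7 members were 2-fold or more higher, beside 5.57% higher and 6.49% lower of 3160 genes. Ccl4 fell just short of 2-fold, at 1732 and 868 CPM (1.78 to 2.24), and Ccl2, at 379.9 and 323 CPM, had a ratio of 1.17 (0.943 to 1.46). Microglia markers moved with these genes, at 11194 CPM in monocyte-like cells of TRAIL+ EAE and 2988 CPM in those of TRAIL- EAE, as did border macrophage markers at 759.9 and 379 CPM, and their part in the differences was not tested.

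Between the TRAIL fractions of microglia-like cells the members differed less. In naive mice the TRAIL+ over TRAIL- ratio was 1.26 for Ccl3 (1.20 to 1.33), 1.20 for Ccl4 (1.16 to 1.24), 1.11 for Ccl2 (0.949 to 1.30), 1.16 for Ccl12 (0.924 to 1.47) and 0.561 for Ccl7 (0.436 to 0.729). None of these 5 members was 2-fold apart, beside 0.251% higher and 0.816% lower of 3188 genes. In EAE it was 1.31 for Ccl3 (1.25 to 1.37), 1.08 for Ccl4 (1.04 to 1.11), 0.868 for Ccl12 (0.788 to 0.958), 0.758 for Ccl2 (0.680 to 0.847) and 0.572 for Ccl7 (0.465 to 0.708). The lower Ccl7 in TRAIL+ depended on how cells were grouped. In naive mice its ratio was 0.382 (0.275 to 0.535) in cluster 4 but 1.48 (0.842 to 2.85) in cluster 5, and 1.18 (0.948 to 1.49) with cells classed one by one. In EAE it was 1.28 (0.455 to 4.99), 1.21 (0.496 to 3.84) and 0.605 (0.484 to 0.760) in clusters 4, 5 and 13, and 0.771 (0.632 to 0.947) with cells classed one by one. Classing one by one left 9 border macrophage-like barcodes in TRAIL+ naive and 1 in TRAIL+ EAE. The microglia-like class then held more TRAIL+ barcodes, whose part in these ratios was not tested. The Ccl12 ratio in EAE turned to 1.04 (0.948 to 1.15) with TMM scaling. Ccl5, at 0.496 (0.401 to 0.616), was the 1 of 6 members 2-fold or more lower, beside 0.776% higher and 1.86% lower of 3221 genes. With barcodes under 1% microglia markers left out the Ccl5 ratio was 1.24 (0.902 to 1.75), on the other side of 1.

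Summed over whole libraries, the 7 genes made up 0.236%, 1.27%, 0.397% and 1.38% of UMIs. These totals were higher where more barcodes were microglia-like, and in a whole library more cells of a type cannot be told apart from more RNA per cell.

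Astrocyte-like cells, the cells the labels name, held few chemokine UMIs. The 126 astrocyte-like barcodes of TRAIL+ naive had 154 Ccl4 UMIs (826 CPM, 700.4 to 967) and 60 Ccl3 UMIs (322 CPM, 245 to 414). A Ccl4 UMI was seen in 24.6% of them at a median of 1320.5 UMIs, and in 15.9% at 500 UMIs. They held 2 UMIs of Ccl2, 3 of Ccl12 and 0 of Ccl5, Ccl7 and Ccl8. The 35 astrocyte-like barcodes of TRAIL- naive held 3 Ccl4 UMIs (37.2 CPM, 7.67 to 109). Microglia markers moved with Ccl4 between these libraries, at 5292 and 1363 CPM in astrocyte-like cells. Per 100 microglia marker UMIs, Ccl4 was at 15.6 in astrocyte-like cells of TRAIL+ naive, below the 24.3 of microglia-like cells and the 17.5 of the 749 listed barcodes with the fewest UMIs, all far below the limit of 500 UMIs. With 3 and 7 barcodes, EAE astrocyte-like cells were too few to describe.

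Endothelial-like cells held Ccl4 as well. Ccl4 was at 134 CPM (114 to 158) in the 1158 of TRAIL- naive, 168 CPM (136 to 206) in the 497 of TRAIL- EAE and 1021 CPM (788 to 1302) in the 57 of TRAIL+ naive. Per 100 microglia marker UMIs these were 19.3, 22.8 and 22.7, each below the 21.5, 27.1 and 24.3 of microglia-like cells in the same libraries. In the listed barcodes with the fewest UMIs Ccl4 was at 14.1, 23.8 and 17.5. Unlike in astrocyte-like cells, the endothelial-like value was above this in TRAIL- naive and TRAIL+ naive, and below it in TRAIL- EAE.

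Pericyte-like cells held Ccl2 at a higher level in EAE. The 468 of TRAIL- EAE held 44 Ccl2 UMIs in 11 cells (89.1 CPM, 64.8 to 119.7) and the 519 of TRAIL- naive held 10 in 4 cells (22.6 CPM, 10.8 to 41.5), a ratio of 3.94 (1.96 to 8.79). Per 100 microglia marker UMIs Ccl2 was at 11.3 in EAE pericyte-like cells, against 2.20 in microglia-like, 3.64 in endothelial-like, 10.8 in monocyte-like and 15.2 in choroid-like cells of the same library. Endothelial-like cells also held more Ccl2 in EAE, with 15 and 11 UMIs and a ratio of 2.73 (1.17 to 6.57). In pericyte-like cells monocyte markers were at 312 CPM in EAE and 90.4 in naive, microglia markers at 788 and 583 CPM, and the median mitochondrial share was 6.51% and 4.79%; their part in the difference was not tested. Ccl3 was at 72.9 and 31.6 CPM (ratio 2.31, 1.21 to 4.63), and Ccl4 had a ratio of 1.34 (0.877 to 2.08). Ccl2 and Ccl3 were thus the 2 of 3 members 2-fold or more higher in EAE, beside 3.01% higher and 4.09% lower of 3859 genes. Per 100 microglia marker UMIs, pericyte-like Ccl3 was at 9.25 in EAE and 5.43 in naive. That was below the 11.75 and 8.97 of microglia-like cells, and the 9.38 and 8.15 of the listed barcodes with the fewest UMIs. The part of microglial RNA in the Ccl3 difference was not tested. Ccl7 had 13 UMIs in 3 of the EAE cells and 0 in the naive ones. In fibroblast-like cells, 36 of the 37 Ccl2 UMIs of TRAIL- EAE lay in 1 of 8 cells, and 12 Ccl7 UMIs of TRAIL- naive lay in 4 of 30 cells (197 CPM, 101.9 to 344).

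Ccl3 and Ccl4 were carried by the same microglia-like cells more often than the product of their shares. At 500 UMIs per cell the Ccl3+Ccl4 pair was seen in 47.6%, 59.9%, 52.7% and 61.7% of cells, against products of 39.2%, 53.4%, 38.4% and 53.7%. Across the 319, 1878, 300 and 1614 cells the thinned counts had Spearman correlations of 0.52, 0.52, 0.61 and 0.54, given as a description since cells of a library share its preparation. In border macrophage-like cells of TRAIL+ naive the pair was seen in 31.3% of cells against a product of 19.3%.

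Ccl2 and Ccl7 were also seen together more often than the product of their shares. They are neighbours with 8258 bases between them, as are Ccl3 and Ccl4 with 13228. Rarer genes can exceed their product by a larger factor, so the factors of the 2 pairs are not compared. In microglia-like cells of TRAIL+ EAE both were seen in 27 cells (1.67%, 1.11 to 2.42), 3.36 times the product. In TRAIL+ naive it was 16 cells, 2.36 times the product. In border macrophage-like cells of TRAIL+ naive both were seen in 15 of 83 cells (18.1%, 10.5 to 28.1) against a product of 6.27%. Of the cells with Ccl2, 83.3% also had Ccl7. In the 60 of these 83 barcodes with more border macrophage than microglial marker UMIs, Ccl2 was at 3028 CPM and Ccl7 at 5528 CPM. Over the whole class they were at 2195 and 3979 CPM, and the part of this mixture was not tested. Monocyte-like cells of TRAIL+ EAE had both in 8 cells, 4.15 times the product.

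Ccl5 was seen with Ccl4 or Ccl2 at rates near or below the product in most cases. In microglia-like cells of TRAIL- EAE it was seen with Ccl4 in 4 cells, 0.429 times the product, and in those of TRAIL+ EAE in 22 cells, 0.897 times. In TRAIL- EAE the 29 microglia-like barcodes with under 1% microglia markers held 77 of the 120 Ccl5 UMIs but 43 of the 5009 Ccl4 UMIs. Their part in the factor of 0.429 was not tested. In monocyte-like cells of TRAIL+ EAE, 0 of 137 thinned cells had both Ccl2 and Ccl5 (exact interval up to 2.66%) against a product of 2.58%. Without thinning 14 of them had both, 0.826 times the product, so the pair was seen at full depth. In monocyte-like cells of TRAIL- EAE the thinned pair was seen in 4 cells, 1.41 times the product. In all 21 pairs were computed.

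**Figure D4:**
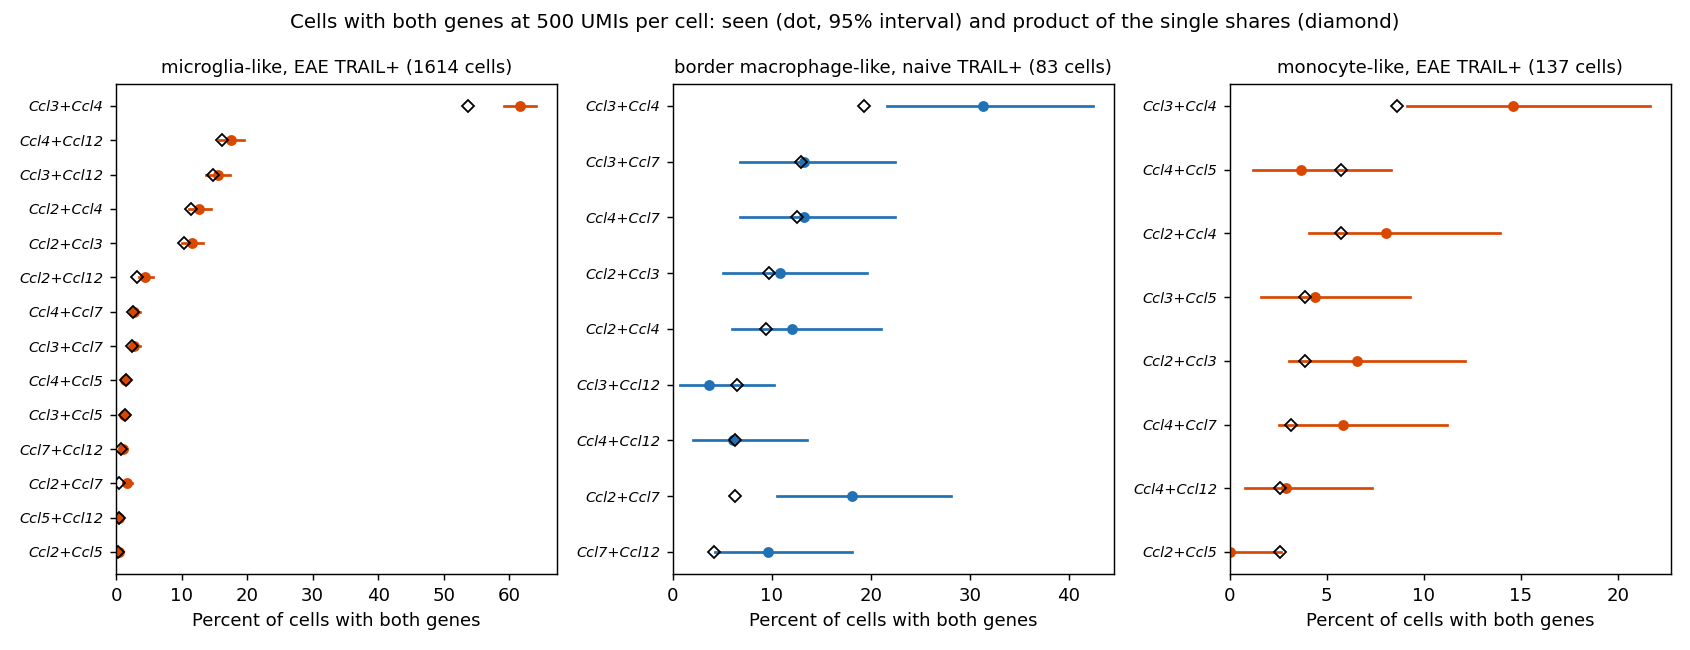
Dots give the percent of cells with UMIs of both genes after thinning to 500 UMIs per cell, with the exact 95% interval, and diamonds the product of the 2 single shares, in 3 class and library combinations; pairs with a product under 3 cells are left out. Ccl2+Ccl7 lies above its product in border macrophage-like cells (18.1% against 6.27%), and Ccl2+Ccl5 was seen in none of the thinned monocyte-like cells but in 14 without thinning.

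Single microglia-like cells carried more of the 7 genes in EAE at equal depth. The mean number of members seen per cell at 500 UMIs was 1.48, 1.71, 1.73 and 1.88, and 12.2%, 15.2%, 25.3% and 24.5% of cells had at least 3. None was seen in 19.7%, 11.4%, 19.3% and 10.9%. Monocyte-like cells carried fewer, 0.588 on average in TRAIL- EAE and 1.12 in TRAIL+ EAE.

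Chemokine receptors had their own sources. Ccr2, the receptor of Ccl2, Ccl7 and Ccl12, was at 584 CPM in monocyte-like cells of TRAIL- EAE and 421 CPM in those of TRAIL+ EAE, and at 9.93, 6.14, 16.7 and 4.62 CPM in microglia-like cells. Ccr1 was at 774 and 488 CPM in EAE monocyte-like cells and at 23.8, 13.2, 23.3 and 25.2 CPM in microglia-like cells. Ccrl2, an atypical receptor, was highest in microglia-like cells of TRAIL+ EAE (1065 CPM). Of receptors of other chemokines, Ackr4, a scavenging receptor, was highest in fibroblast-like cells of TRAIL- naive (230.1 CPM). Ccr7 was highest in microglia-like cells of TRAIL- EAE (187 CPM), where all its 112 UMIs lay in the 29 of 300 barcodes with under 1% microglia markers.

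The other CC chemokines were mostly sparse in microglia-like cells. Of 13 genes 2 averaged 50 CPM or more there in the TRAIL+ pair and neither was 2-fold apart (median log2 ratio -0.51). Ccl6 was highest in monocyte-like cells of TRAIL+ EAE (897 CPM), and Ccl9, Ccl17 and Ccl22 in those of TRAIL- EAE (445, 154 and 109 CPM). Ccl24 was highest in border macrophage-like cells of TRAIL+ naive (332 CPM), Ccl11 in fibroblast-like cells of TRAIL- naive (197 CPM) and Ccl19 in pericyte-like cells of TRAIL- EAE (64.8 CPM). Ccl25 and Ccl27a peaked in choroid-like cells of TRAIL- EAE (56.1 and 68.5 CPM). The cytokines Tnf, Il1a and Il1b, often induced with Ccl3 and Ccl4, were at 2529.6, 1404 and 1641 CPM in microglia-like cells of TRAIL+ naive and 3421, 988 and 1335 CPM in those of TRAIL+ EAE, and none of the 3 was 2-fold apart. Of 21 immediate early genes 2 were higher and 1 lower by 2-fold in the TRAIL+ pair (median log2 ratio -0.42), beside 2.45% higher and 0.466% lower of all genes. In the TRAIL- pair 0 were higher and 9 lower (median -0.80), beside 7.93% and 8.42%.

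Across 22 class and library combinations, the genes whose log level was most like each member's, of 4017 genes and by Pearson's r, differed by member. For Ccl3 they were Csf1r (0.98), Csf3r (0.97) and Tnfaip3 (0.97), and for Ccl4 Ly86 (0.98), Ccl3 (0.96) and Fcrls (0.96). For Ccl12 they were Tlr7 (0.94), C1qa (0.94) and Grn (0.94), and for Ccl2 Nfam1 (0.94), Pld4 (0.92) and Bcl2a1b (0.91). Ccl8 was most like Cbr2 (0.85), Pf4 (0.76) and F13a1 (0.74), all markers that lead the border macrophage-like cluster. For Ccl5 they were Acod1 (0.88), Cxcl9 (0.87) and Ccr2 (0.84), and for Ccl7 Ftl1 (0.89), AC160336.1 (0.87) and Ctsb (0.86). The combinations share libraries and depth, so these values are descriptions.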

How the data were processed

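Cells of 4 groups, 1 library each, were analysed. The deposited tables hold raw UMI counts per barcode and gene from inDrops v3 libraries, per the labels' protocols and the values, which are whole numbers. The submitters' processing notes name Bowtie and GRCm38, without a version of Bowtie or an annotation. Barcodes with at least 500 UMIs and at most 20% mitochondrial UMIs were kept, of a listed minimum of 100 UMIs, and total 2747727, 3635890, 2549414 and 3759970 UMIs in TRAIL- naive, TRAIL+ naive, TRAIL- EAE and TRAIL+ EAE. Doublets stayed in; Scrublet (expected rate 5%) marked 77 of 7899, and leaving them out was an alternative.

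Clustering left out 39 chemokine columns, so the members had no part in the classes. It used log values at 10000 UMIs per barcode, 2000 variable genes, 30 components, 15 neighbours and Leiden resolution 1 (scanpy 1.11.5), which gave 15 clusters. A cluster took the name of the best of 16 marker lists (score of at least 0.5, at least 3 markers each seen in 10% of cells), a rule set after the clusters were seen. The monocyte-like cluster scored 0.996, and 0.919 on the next best list. The members and lists were chosen with earlier results of these data known.

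UMIs were summed per class and library (CPM, exact Poisson intervals); shares and ratios have exact Clopper-Pearson intervals (scipy 1.17.1), at 95% and taking UMIs as independent. A 0 was set to 3 counts in a bound, and a share of 0 has a limit of 3 counts where so named, otherwise the exact interval. Genes were called at 2-fold where they averaged 50 CPM or more. Shares of cells were also taken after thinning each cell to 500 UMIs. Classes with at least 20 barcodes and 20000 UMIs are described, others by UMIs alone. All members are named; list genes are named at 50 CPM or more in a class, with the early genes given as a sum, and the 3 genes most like each member. A receptor gene of the list is not reported here. The call rule was tested on simulated data. Alternatives were filters on depth, mitochondrial share and doublets, resolution 2, class by single cells, totals without the members, TMM (edgeR 4.0.16), a floor on microglia markers, no thinning and, added after seeing the data, leaving out the richest cell.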

Additional observations from a re-analysis of the deposited data

How the results depend on the processing

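Of 817 values recomputed under alternatives, 680 stayed within their counting interval or limit, 128 moved and 9 were ratios that lay beyond counting error and turned direction. Among 260 recomputed ratios, 19 moved by over 1.5 times. The log2 ratio of EAE over naive in microglia-like cells ranged over the alternatives run from 1.81 to 1.88 (TRAIL+) and 2.21 to 2.37 (TRAIL-) for Ccl12, and from 4.03 to 4.45 and 4.43 to 6.12 for Ccl5. Ccl5 between TRAIL+ and TRAIL- EAE turned, to a log2 ratio of 0.14 with class by single cells and 0.31 with a floor of 1% microglia markers. With class by single cells Ccl7 in microglia-like cells turned to -0.38 (EAE over naive, TRAIL+) and 0.24 (TRAIL+ over TRAIL-, naive). That classing made 1967 barcodes of TRAIL+ naive and 1686 of TRAIL+ EAE microglia-like, against 1878 and 1614 by clusters. In border macrophage-like cells, of which it left 9 and 1 barcodes, Ccl2 turned to 0.31, Ccl3 to -0.028, Ccl7 to 1.29 and Ccl12 to -0.21. With TMM, Ccl12 between TRAIL+ and TRAIL- EAE turned to 0.063. The count of members 2-fold apart between TRAIL fractions of microglia-like cells was 0 in EAE with at least 1000 UMIs per barcode, with class by single cells, with TMM and with the marker floor, and 1 in naive mice at resolution 2. Between EAE and naive TRAIL- it was 1 with the marker floor, with the log2 ratio of Ccl5 still at 5.26. The floor left out 77 of 120 EAE and 3 of 4 naive Ccl5 UMIs, so Ccl5 averaged under the 50 CPM that a call needs. Without thinning, Ccl12 was seen in 16.6%, 19.5%, 45% and 43.7% of microglia-like cells, and Ccl3 with Ccl4 in 63.3%, 75.9%, 65.3% and 79.7%; this follows from more UMIs per cell. With at least 1000 UMIs per barcode the Ccl3 and Ccl4 pair was seen in 59.2% of TRAIL- EAE cells; the cause was not tested. No paired analysis was possible because each group is 1 library. Depth limits Ccl8, naive Ccl5, Ccl7 within clusters and Ccl12 in border macrophage-like cells, which rest on few UMIs.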
